A study of Mus musculus with 2 samples.

Results

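The fibroblast growth factor (FGF) genes of embryonic carotid arteries were compared between 2 branches of the vessel. The set was chosen by name and holds 33 genes, namely 22 Fgf genes, 5 receptor genes and 6 genes that FGF signalling switches on as feedback, out of 18193 genes named on the array. The embryos were E13.5 mice of the ICR strain, a stage in mid-gestation. Segments dissected from 22 embryos were pooled, and 1 pool of internal carotid arteries and 1 pool of external carotid arteries were each hybridised to 1 Affymetrix expression array, called here the internal and the external pool. The 2 pools share strain, age and protocol and, as far as the labels say, differ only in the vessel dissected, with no treatment or genetic change named. The labels do not say if each embryo contributed to both pools. The series asks about endothelin and the path of axons from the superior cervical ganglion, which follow these vessels. No replicate was made, so each value below is a single measurement of a pool, and no test and no p-value is given.

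FGF ligands are small proteins that bind receptor tyrosine kinases on neighbouring cells, held there by heparan sulfate. The activated receptor recruits adaptor proteins and switches on the Ras and ERK kinase cascade. That cascade induces the ETS transcription factor genes Etv4 and Etv5 and, at the same time, its own inhibitors, the Sprouty genes and the phosphatase gene Dusp6. Transcripts of these feedback genes are widely used as a readout of FGF signalling in embryos. In the head and neck of the embryo FGFs act on pharyngeal arch mesenchyme, neural crest, epithelium, muscle progenitors and the outflow vessels.

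Values are MAS5 signal intensities, a summary of the brightness of the probes of a probe set. The log2 ratio is external over internal carotid signal, so a value above 0 is higher in the external pool. The median signal of each array, 47.5 internal and 52.3 external, served as a floor below which a signal was not read. A gene under the floor on 1 array has a lower bound in place of a ratio, and a gene under both floors has neither. A gene is given by its brightest probe set, and other probe sets that could be read are printed beside each member and beside a pathway gene where they differ from the first by more than the spread or in sign. Log2 ratios of different probe sets for 1 gene had a standard deviation of 0.34, pooled over 4315 genes, which is the only spread that these 2 arrays provide and covers probe differences, not embryos or dissections. Signals of different genes are not comparable with each other, because each probe set binds with its own strength.

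Promoter sequences are shown first for 6 members. They are Fgfr4, the 1 member past 2-fold, then Fgf10, Fgf7 and Fgf9, the ligand genes past 1.5-fold, then Dusp6 and Spry2, shown as examples of feedback genes although their ratios lay within the probe-set spread. Each run is the 150 bases before the gene's start, 5′ to 3′ on the gene's strand, from RefSeq on GRCm38.p6.
Fgfr4, chr13:55152668-55152817, plus strand: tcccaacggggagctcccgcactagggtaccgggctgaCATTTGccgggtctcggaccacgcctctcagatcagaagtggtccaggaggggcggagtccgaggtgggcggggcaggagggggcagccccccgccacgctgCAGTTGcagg
Fgf10, chr13:118714549-118714698, plus strand: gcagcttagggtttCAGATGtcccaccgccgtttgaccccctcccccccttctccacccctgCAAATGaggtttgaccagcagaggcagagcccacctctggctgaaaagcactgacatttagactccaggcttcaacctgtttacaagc
Fgf7, chr2:126034508-126034657, plus strand: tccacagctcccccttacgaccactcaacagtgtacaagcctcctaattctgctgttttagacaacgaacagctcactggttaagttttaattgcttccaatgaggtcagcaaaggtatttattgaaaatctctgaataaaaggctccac
Fgf9, chr14:58072536-58072685, plus strand: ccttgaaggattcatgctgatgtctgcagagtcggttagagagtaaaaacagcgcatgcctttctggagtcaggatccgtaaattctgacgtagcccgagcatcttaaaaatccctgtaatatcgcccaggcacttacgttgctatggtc
Dusp6, chr10:99263081-99263230, plus strand: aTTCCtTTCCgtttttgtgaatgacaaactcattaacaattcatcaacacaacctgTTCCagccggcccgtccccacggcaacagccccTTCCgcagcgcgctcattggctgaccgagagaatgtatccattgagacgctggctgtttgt
Spry2, chr14:105896820-105896969, minus strand: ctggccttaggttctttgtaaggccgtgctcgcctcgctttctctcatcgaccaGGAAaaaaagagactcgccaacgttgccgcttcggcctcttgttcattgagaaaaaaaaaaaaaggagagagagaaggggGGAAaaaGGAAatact

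Capitals in the first 4 runs mark the E-box letters CANNTG, the core bound by myogenic and other basic helix-loop-helix factors, which read the same on both strands. Fgfr4 held 2 matches, beginning 112 and 10 bases before the start, Fgf10 held 2, and Fgf7 and Fgf9 held none in this window. Capitals in the last 2 runs mark GGAA or its complement TTCC, the core bound by ETS factors such as Etv4 and Etv5, with 4 matches for Dusp6 and 3 for Spry2. Both cores are short and common. In windows of the same length, CANNTG occurred in 47.7% and GGAA in 80.8% of 32851 promoters. Counted in the same way, 13 of 32 member promoters held CANNTG and 22 held GGAA. These promoters belong to 24 members, of which 12 held CANNTG and 17 held GGAA in at least 1 promoter. A match describes letters and is not a binding site.

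The 33 members had 69 probe sets. Signals reached both floors for 17 members, 1 floor for 4 and neither for 12. Over the 21 members with a ratio or bound, 1, or 4.76%, was at least 2-fold higher in 1 pool, beside 3.58% of the 12408 genes with a ratio or bound. That member was Fgfr4, higher in the internal pool, where 1.47% of all genes were called. In the external pool 2.10% of all genes and no member reached 2-fold. These shares differ from the background by less than 1 member, so the count says nothing particular about FGF genes. At 1.5-fold, 6 of 21 members were past the threshold beside 14.6% of all genes. They were Fgf7, Fgf9, Fgfr4 and Spry4 in the internal pool, where 5.38% of all genes were past it, and Fgf10 and Fgfr3 in the external pool, where 9.20% were. The median log2 ratio was -0.12 over the members and 0.06 over all genes, with 14 of 21 members and 43.8% of all genes below 0, and 7 members and 56.1% of all genes above 0. The members' split depends on the floor, being 17 below and 16 above 0 with none, beside 7846 below and 10288 above over 18193 genes. For 13 of the 21 members the ratio or bound lay within the probe-set spread of 0, or 61.9%, beside 63.8% of all genes.

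**Figure D1:**
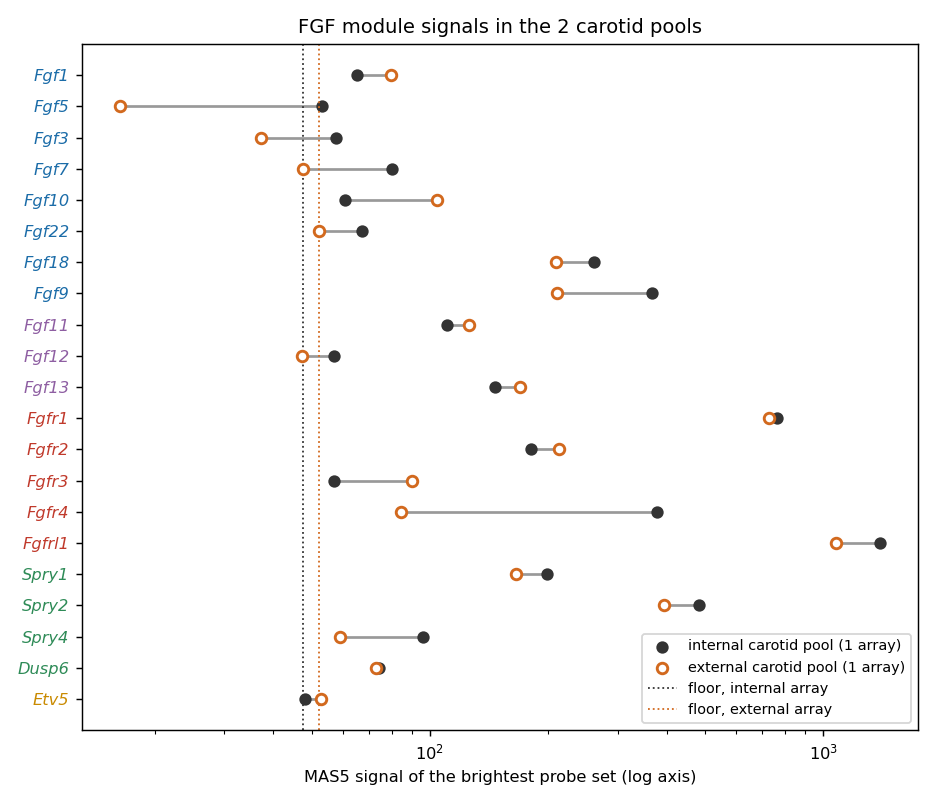
MAS5 signal of the brightest probe set (log axis) of the 21 members with a ratio or bound, on the internal array (filled) and the external array (open), with each array's floor as a dotted line. Gene names are coloured by class, from top to bottom paracrine ligands, intracellular FGFs, receptors, feedback inhibitors and Etv5. The pair of points is farthest apart among members above both floors for Fgfr4, at 378.8 internal and 84.4 external.

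Among the receptors, Fgfr4 stood apart from the other 4. Fgfr4 is a receptor tyrosine kinase known in embryos from skeletal muscle progenitors. Its brightest probe set read 378.8 in the internal and 84.4 in the external pool, a 4.49-fold difference and a log2 ratio of -2.17. Of the 12408 genes, 30 had a lower ratio or bound. A further Fgfr4 probe set, of a kind open to cross-hybridisation, read 142.8 and 124.6, a log2 ratio of only -0.20. The 2 probe sets thus differed by 1.97 on the log2 scale, far beyond the spread of 0.34. The 3 remaining probe sets were dim, at 48.7 and 15.5, 17.7 and 12.2, and 5.4 and 4.1. All 5 probe sets of Fgfr4 had a higher signal on the internal array, but only 2 gave a ratio. The ratio of -0.20 lay within the probe-set spread. The direction and the size of a difference beyond that spread thus rest on 1 probe set.

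Skeletal muscle markers moved in the same direction as Fgfr4. All 19 genes of that list were below 0, 17 of them at least 2-fold higher in the internal pool, with a median log2 ratio of -2.12. Their summed signal was 29582 in the internal and 6400 in the external pool, and none was at 0. Myod1, a master regulator of muscle, had a log2 ratio of -2.14, Myog, which drives differentiation, of -2.12, and Pax7, a marker of muscle progenitors, of -1.78. Ratios and bounds of the list ran from -2.90 for Myh7 to -0.60 for Ckm. Other probe sets of Ckm and Des were higher in the external pool, at 0.49 and a bound of 0.34. The brightest Fgfr4 probe set lay within the range of the list, and its further read probe set, at -0.20, lay outside it. The part of muscle tissue in the Fgfr4 difference was not tested. In pooled tissue, fewer cells of a type and less RNA per cell cannot be told apart.

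The other receptors lay within 1.6-fold between the pools. Fgfr1, the receptor of most mesenchyme, read 760.5 internal and 726.2 external, a log2 ratio of -0.07, with 0.21 and 0.01 at its other probe sets. Fgfr1 is therefore near equal on these arrays, and its sign differs between probe sets. Fgfr2, whose splice forms serve epithelium and mesenchyme, read 180.8 and 213.2, a log2 ratio of 0.24. A further Fgfr2 probe set read 34.6, under the floor, and 62.1, a bound of 0.39, and the third lay under both floors. Both read Fgfr2 probe sets were higher in the external pool, the first by less than the probe-set spread. Fgfr3, a brake on cartilage growth, read 56.9 and 89.8, 1.58-fold higher in the external pool with a log2 ratio of 0.66, and its other probe set lay under both floors. Of 6 read cartilage markers, 5 were above 0, with a median of 0.56 and summed signals over the whole list of 10 of 1212 internal and 1643 external, none at 0. Their part in the Fgfr3 value was not tested. Fgfrl1, a receptor without the kinase domain, read 1396.9 and 1077.1, a log2 ratio of -0.38, and 134.7 and 120.3 at its other probe set, a log2 ratio of -0.16.

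**Figure D2:**
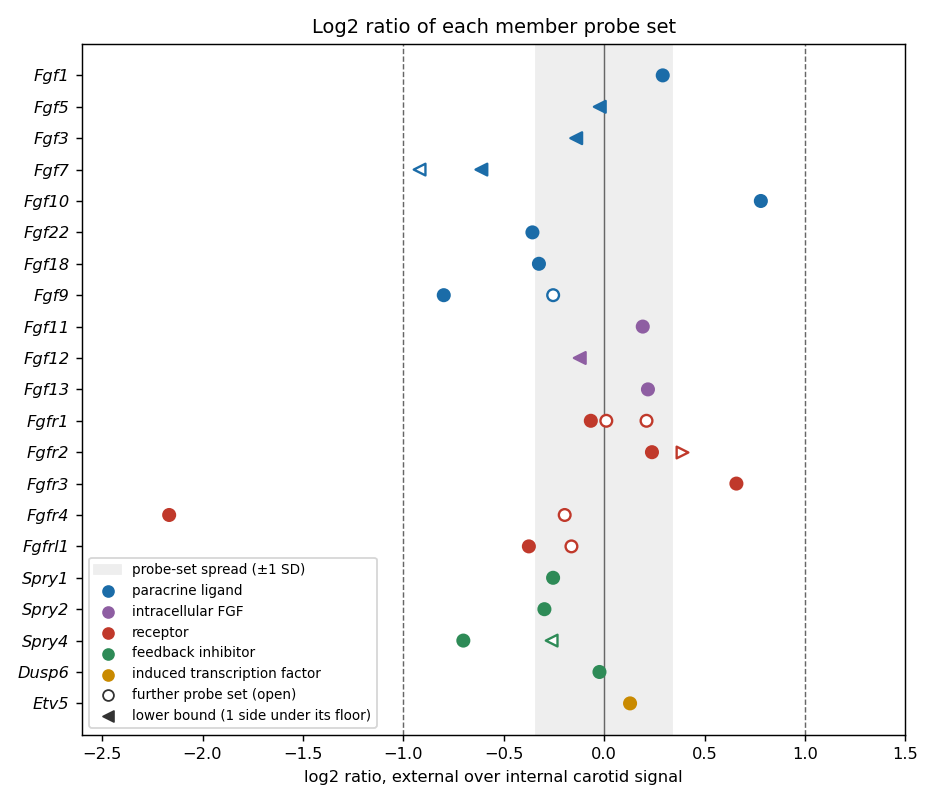
Log2 ratio, external over internal, of each member probe set with a ratio (circle) or lower bound (triangle pointing the way the true ratio may lie), filled for the brightest probe set of a gene and open for further ones, coloured by class. The shaded band is the probe-set spread of 0.34 and dashed lines mark 2-fold. The Fgfr4 circles lie at -2.17 and -0.20, while the Fgfr1 circles lie between -0.07 and 0.21.

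Of the 15 paracrine ligand genes, which signal between neighbouring cells, 8 had a ratio or bound. Of these, 6 were below 0 and 2 above, beside 43.8% of all genes below 0. Their median was -0.23, and none passed 2-fold. The split depends on the floor. With a floor at the 25th percentile it was 6 below and 6 above, with a median of -0.05, beside 6862 and 8983 genes. With no floor it was 8 and 7, with a median of -0.32, beside 7846 and 10288 genes. With a pseudocount at the array median, which gives all 15 a value, the median was 0.10, beside 0.11 over all genes. The pseudocount is larger on the external array, which by itself moves dim genes above 0. The ligands of the FGF7 subfamily, of which Fgf7 and Fgf10 are made by mesenchyme, act on the epithelial splice form of Fgfr2. The members of this subfamily went different ways. Fgf10, which drives budding of lung, gland and limb, read 60.8 internal and 104.4 external. That is 1.72-fold higher in the external pool, a log2 ratio of 0.78, from its only probe set. Fgf7, the keratinocyte growth factor, read 79.9 internal and 47.6 external, the latter under the floor, so it was at least 1.53-fold higher in the internal pool. Its other probe set read 98.9 and 35.5, a bound of -0.92 on the log2 scale. Both Fgf7 probe sets were thus higher in the internal pool and the Fgf10 probe set in the external, on each side by more than the probe-set spread.

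The other members of that subfamily were dim. Fgf22 read 67.0 internal and 52.3 external, the latter on the floor, a log2 ratio of -0.36, and its other probe set was under both floors. Fgf3, an early signal of the ear and pharyngeal region, read 57.6 and 37.2, a bound of -0.14, and 19.7 and 37.3 at a further probe set, in the opposite order and under both floors. The epithelial markers, cells on which this subfamily acts, had a median log2 ratio of 0.06, with 5 of 8 read genes above 0. The summed signal of all 13 was 1243 internal and 1710 external, none at 0. Epcam, at 169.5 and 660.9, had a log2 ratio of 1.96 and its difference exceeds that of the sums, while Krt14 had a log2 ratio of -0.94. Each of these 2 values comes from 1 probe set open to cross-hybridisation, without which the gene has no value. The part of epithelium in the ligand values was not tested.

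Fgf9, a ligand of mesenchymal receptor forms, had the lowest ratio among ligands read on both arrays. Its brightest probe set read 366.9 internal and 210.9 external, 1.74-fold higher in the internal pool with a log2 ratio of -0.80. Its other probe set read 91.0 and 76.3, a log2 ratio of -0.25. Both Fgf9 probe sets had the same order, and 1 of them lay within the probe-set spread. Fgf16 and Fgf20, its nearest relatives, were under both floors, at 19.7 and 25.9 for Fgf16 and 3.6 and 2.5 for Fgf20.

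Fgf18, a ligand of skeletal tissue, read 261.3 internal and 208.6 external, a log2 ratio of -0.32, inside the probe-set spread. Its relatives Fgf8 and Fgf17, signals of pharyngeal epithelium and brain, were under both floors, at 1.8 and 3.2 for Fgf8 and 36.4 and 46.9 for the brighter Fgf17 probe set. Fgf1, which binds all FGF receptors and lacks a secretion signal, read 65.2 and 79.8, a log2 ratio of 0.29, and its 2 other probe sets were under both floors. Fgf2, its close relative and a known growth factor of endothelium, read 15 and 18.2, under both floors. Fgf5, a ligand known from hair follicle and muscle connective tissue, read 53.1 internal and 16.3 external. Because the internal signal barely passed the floor, the bound was only -0.02, although the raw external signal was far lower. Fgf4, a ligand of the early embryo and limb bud, reached at most 26.1 internal and 33 external over 4 probe sets, and Fgf6, known from muscle, read 5.9 and 4.1, so both genes were under the floors.

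The endocrine FGFs act at a distance with Klotho co-receptors. All 3 were under both floors, with 2.7 internal and 6.7 external for Fgf15, 11.6 and 26.4 for Fgf21 and 33.7 and 23.4 for Fgf23. No fold is given for any of them. Over the 12 members under both floors, the brightest probe set ran from 1.8 to 36.4 on the internal and from 2.5 to 46.9 on the external array. A signal under the floor means that it could not be read here, not that the transcript was absent.

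The intracellular FGFs, Fgf11 to Fgf14, are not secreted and bind voltage-gated sodium channels in excitable cells. Fgf13, the member of this class with a role in developing neurons, read 146.0 internal and 169.8 external, a log2 ratio of 0.22. Fgf11 read 110.3 and 126.0, a log2 ratio of 0.19. Fgf12 read 56.9 and 47.3, a bound of -0.12. Fgf14 was under both floors at all 4 probe sets, which reached 18.5 internal and 28.4 external, each of them higher on the external array. The 3 read genes of this class were thus all within the probe-set spread. Neuronal markers in general stood at a median log2 ratio of 1.57, and 11 of 15 read genes passed 2-fold in favour of the external pool. Their summed signals were 2760 internal and 11410 external over 16 genes, none at 0. The sympathetic neuron markers had a median of 2.35, with 9 of 10 read genes past 2-fold in that direction and summed signals of 1962 and 8573 over the 12 genes with a probe set, none at 0. Of 7 read sodium channel genes and partners, 2 passed 2-fold in favour of the external pool, Scn3b, a beta subunit, at 4.01-fold and Scn7a at 2.07-fold. The Scn7a call was lost after centring, quantile normalization and loess, at 0.97, 0.94 and 0.91 on the log2 scale, and with a pseudocount at the array median, at 0.69. Scn8a, a channel of axons, was lowest at -0.04, with a bound of 0.29 at another probe set. Scn2b, a beta subunit, had the next lowest measured ratio, 0.51. Scn9a, a channel of peripheral neurons, had only a bound, 0.38 in the external direction and 0.74 at its other probe set, and cannot be ranked.

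**Figure D3:**
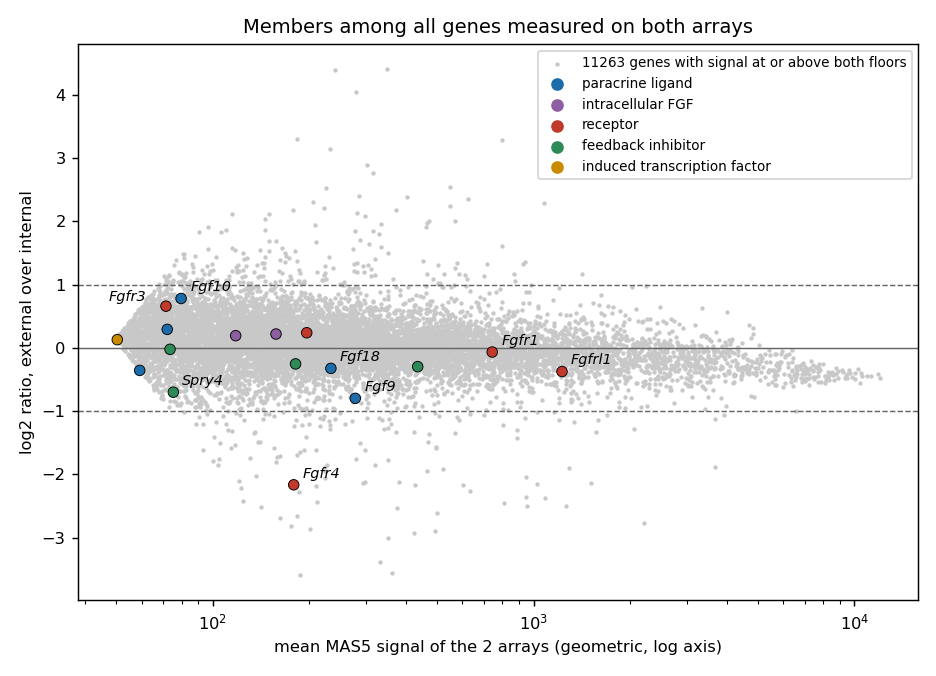
Log2 ratio, external over internal, against the mean signal of the 2 arrays (log axis) for all genes at or above both floors (grey), with the 17 members of that kind coloured by class and dashed lines at 2-fold. Fgfr4 lies at -2.17, and the other 16 members lie between -0.80 and 0.78.

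The 4 feedback inhibitors were all below 0, by small amounts. Sprouty proteins block the step from receptor to Ras. Spry2 read 482.7 internal and 392.7 external, a log2 ratio of -0.30, with its other probe set under both floors at 42 and 45. Spry1 read 197.9 and 165.9, a log2 ratio of -0.25. Spry4 read 96.1 and 59.1, 1.63-fold higher in the internal pool with a log2 ratio of -0.70. A further Spry4 probe set read 62.7 and 50.9, a bound of -0.26, and the other 2, under both floors, had the opposite order. Dusp6, the phosphatase that switches off ERK, read 74.2 and 73.0, a log2 ratio of -0.02, so it was equal within any spread measured here. The median of the 4 was -0.28. Centring lowers every log2 ratio by the same amount, so all 4 stayed below 0 by construction, with a median of -0.36. Under it 6659 of 12499 genes were below 0. With quantile scaling or loess all 4 lay below 0, with medians of -0.32 and -0.32. Beside them 5917 of 12569 and 6079 of 12532 genes were below 0. With a pseudocount at the array median, which is larger on the external array, Dusp6 turned to 0.04, beside a median of 0.11 over all genes. Only Spry4 exceeded the probe-set spread. In the main setting the count of 4 below 0 stands beside 43.8% of all genes.

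The induced ETS factors were barely read. Etv5 read 48.2 internal and 52.7 external, each within 1 unit of its floor, a log2 ratio of 0.13 that turned to -0.01 after quantile normalization and -0.05 after loess. Etv4 was under both floors, with 10.3 and 22.4 at its brighter probe set. The feedback genes as a class therefore showed no difference past 2-fold, and their ETS factors could not be compared.

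Further genes of the pathway came from lists by role. Of 26 adaptors and kinases between receptor and ERK, 20 had a probe set listed and were read, none passed 2-fold, and the median was 0.17. Sos1, the exchange factor that loads Ras, had the highest log2 ratio, 0.61, then Ptpn11, a phosphatase needed for Ras activation, 0.44, with -0.08 at its other probe set. Crkl, an adaptor known from pharyngeal arch development, had the lowest, -0.85, from 981.1 internal and 543.2 external, with its 3 other probe sets under both floors, and Map2k1, the kinase of ERK, had -0.27. Of 12 read negative regulators other than the members, none passed 2-fold. Dusp1 and Dusp2, phosphatases induced by many stimuli, had log2 ratios of 0.84 and 0.70, while Il17rd, an FGF antagonist at the membrane, was at -0.28 and Lrig3 at -0.32, with -0.48 and 0.09 at its other probe sets. The median of this list was 0.08.

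Among co-receptors and partners, 1 of 8 read genes passed 2-fold. It was L1cam, an adhesion molecule of axons that can engage FGF receptors, 2.56-fold higher in the external pool. The neuronal lists given above were also higher there, and their part in the L1cam value was not tested. Ncam1, a related molecule, was next at a log2 ratio of 0.88. Its other probe sets stood at 0.59, -0.61 and a bound of -0.23, with a median over probe sets of 0.18, so Ncam1 has no settled direction. Flrt2, a membrane partner of FGF receptors, was lowest at -0.34, then Nrcam at 0.15. Of 22 read heparan sulfate genes none passed 2-fold, and the median was -0.04. Sdc2, a syndecan core protein, was highest at 0.96, and its 2 other probe sets that could be read stood at 1.05 and at a bound of 1.47. Agrn followed at 0.55. Gpc1, a glypican core protein, was lowest at -0.87, and Sulf2, which trims the sulfate groups that FGFs bind, was at -0.73, from 1741.8 internal and 1050.1 external on a probe set open to cross-hybridisation. Its other probe sets disagreed, with log2 ratios of -1.06 and 0.13, and without probe sets of that kind the Sulf2 value was 0.13, so its direction depends on the probe set.

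Among the 6 pathway lists, Barx1 on the list of FGF-responsive genes had the largest difference. Of 18 read genes on that list, 1 passed 2-fold in each direction, and the median was 0.22. Barx1, a target of FGF8 in jaw mesenchyme, read 905.2 internal and 200.8 external, 4.51-fold higher in the internal pool. Lhx6, another FGF8 target of the same region, read 39.1, under the floor, and 108.0, a difference of at least 2.27-fold in favour of the external pool, while its other probe set, under both floors, had the opposite order. With the pseudocount the Lhx6 ratio was 0.89 on the log2 scale, under 2-fold. Genes known as targets of the same ligand thus differed in opposite directions, and Fgf8 itself could not be read in either pool. Lhx8, close to Lhx6 in sequence, had a bound of -0.77 in the internal direction. Ier2, an immediate-early gene, had a log2 ratio of 0.89.

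**Figure D4:**
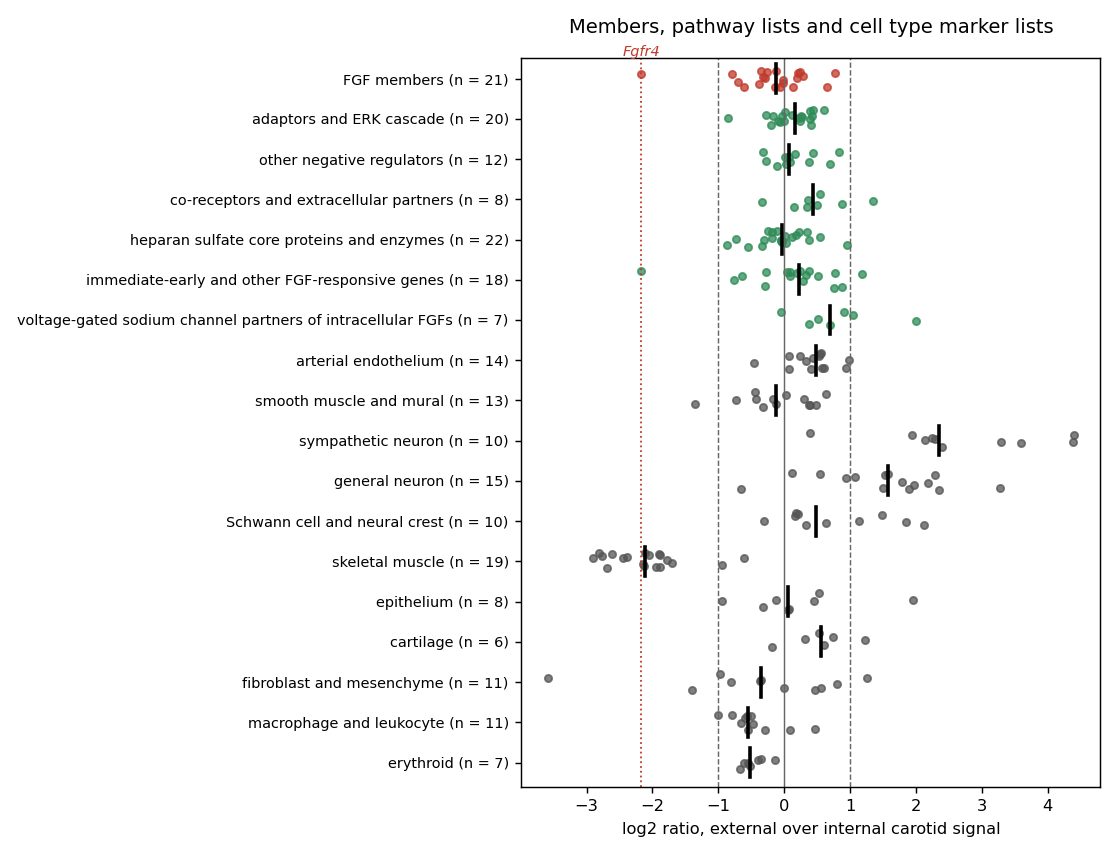
Log2 ratio, external over internal, of each gene with a ratio or bound (points, shifted vertically at random) in the FGF set (red), 6 pathway lists (green) and 11 cell type marker lists (grey), with the median of each list as a black bar, dashed lines at 2-fold and the Fgfr4 value as a dotted line. The FGF median is -0.12, and the Fgfr4 line crosses the skeletal muscle points, whose median is -2.12.

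The labelled tissue was checked against its markers. Arterial endothelial genes were read for 14 of 16, with a median of 0.49, and Cdh5 read 225.2 internal and 337.2 external, but Pecam1 was under both floors at 11.2 and 48.6. All 13 smooth muscle and mural genes were read, 6 above and 7 below 0, with a median of -0.12. They ran from -1.35 for Abcc9 to 0.64 for Myocd. Acta2 read 9481.8 and 6952.3 on a probe set open to cross-hybridisation, without which it has no value. Fibroblast and mesenchyme genes had a median of -0.36, Schwann cell and neural crest genes 0.48, macrophage and leukocyte genes -0.54 and erythroid genes -0.51. Markers of several tissues beside the vessel wall were thus read in both pools. The median log2 ratio also depended on signal, from 0.17 in the dimmest to -0.19 in the brightest of 10 equal groups of probe sets.

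**Figure D5:**
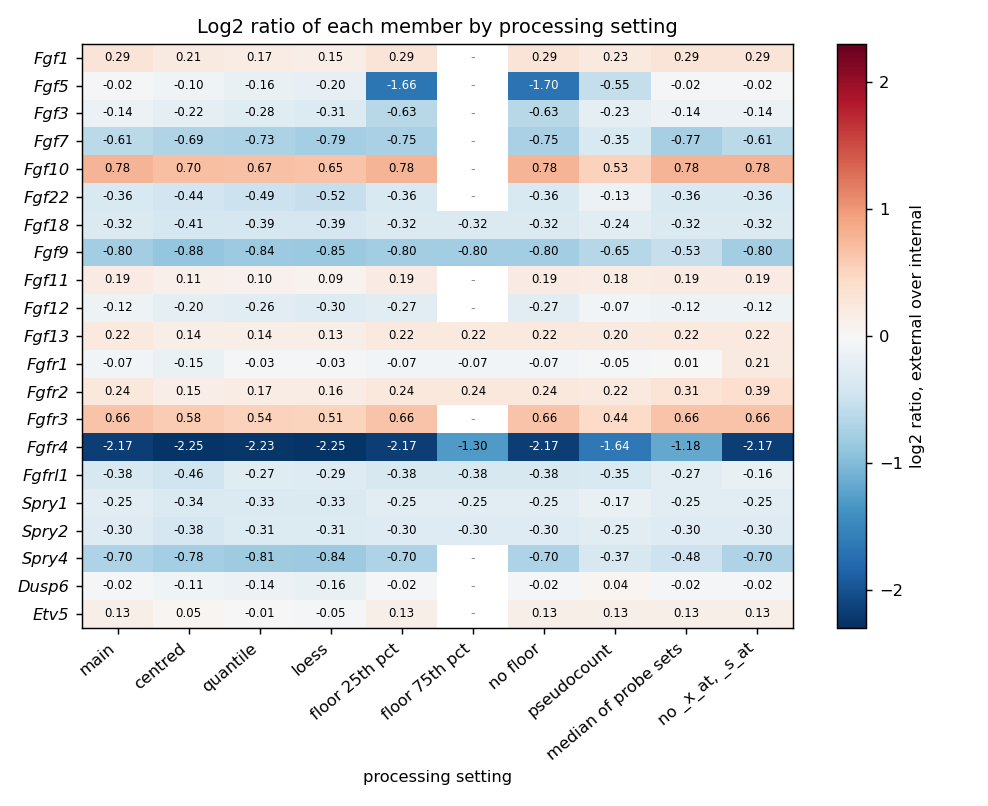
Log2 ratio, external over internal, of the 21 members (rows) under the main setting and 9 alternatives (columns), with colour for sign and size, bounds included, and a dash where neither ratio nor bound exists. Fgfr4 stays between -2.25 and -1.18, and Fgf5 moves from -0.02 to -1.70 without a floor.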

How the data were processed

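Per the submitters' processing notes, GCOS 1.4 and MAS5 made the deposited linear signal intensity per probe set. Both arrays had a trimmed mean of 150, so the authors' scaling was kept. Detection calls were not used here. Of 45037 non-control probe sets, 34945 had 1 gene in the platform annotation, 932 had several and 9160 were not listed. Symbols were updated by gene number through RefSeq (GRCm38.p6), matching 34741. The log2 ratio was computed from these values. A bound pointing against the measured side was not used. The brightest probe set had the highest geometric mean. Members, lists and thresholds were chosen with earlier results of these data known. Named genes are all members, and of each pathway list the 2 highest, the 2 lowest and those past 2-fold. Of the 119 pathway genes, 13 had no listed probe set of their own. The steps were tested on simulated data in which only bright genes were given a change. That test does not cover dim members near a floor. Alternatives are those described in the closing section. Precision is limited by having only 2 arrays. Tools were numpy 2.4.6 with statsmodels 0.14.6 (loess), pandas 2.3.3, scipy 1.17.1 (trimmed mean) and matplotlib 3.10.9 in Python 3.11.15.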

Additional observations from a re-analysis of the deposited data

How the results depend on the processing

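Alternatives changed 1 choice at a time, namely centring, quantile normalization, loess (span 0.3), a pseudocount at the array median, a lower floor (25th percentile), a higher one (75th) or none, the median over probe sets, leaving out probe sets ending _x_at or _s_at, and thresholds of 1.5-fold and 3-fold. Fgfr4 was at least 2-fold higher in the internal pool under each of them, with log2 ratios from -2.25 to -1.18, the smallest with the median over probe sets. All of them kept the Fgfr4 probe set at -2.17. The median averaged it with the probe set at -0.20, and leaving out probe sets ending _x_at or _s_at removed the latter. The range is therefore not a check on that 1 probe set. The count of members past 2-fold in that pool was 2 of 29 under the lower floor, beside 474 of 15863 genes. With no floor it was 2 of 33, beside 1088 of 18193 genes. Fgf5 was the further member in each. At 1.5-fold the count was 4 of 21, beside 5.38% of all genes. Of these, Fgf7 and Spry4 fell under 1.5-fold with the pseudocount, and Fgf9 and Spry4 with the median over probe sets. In the external pool the count was 3 of 33 without a floor, beside 1490 of 18193 genes. The 3 were Fgf15, Fgf21 and Etv4, which read under both floors. At 1.5-fold it was 2 of 21, beside 9.20% of all genes. Of these, Fgfr3 fell under 1.5-fold after centring, quantile normalization and loess, and Fgf10 and Fgfr3 both did with the pseudocount. The median over members with a value was -0.12 as reported. It ran from -0.30 under the higher floor to -0.02 across the alternatives other than the pseudocount. With the pseudocount it was 0.10, beside 0.11 over all genes. The split of members into 14 below and 7 above 0 depends on the floor. It was 15 and 14 under the lower floor, beside 6862 below and 8983 above 0 over all genes. With no floor it was 17 and 16, beside 7846 and 10288. Members too dim to read enter under both settings. With the pseudocount it was 14 and 19, beside 6297 and 11883. The pseudocount was larger on the external array, 52.3 against 47.5, which by itself moves dim genes above 0. Of 177 gene values under alternatives, 169 lay within the probe-set spread of 0.34 of the value reported, and 8 moved further. The 8 belong to Fgf5, Fgf3 and Fgfr4. Many of the 177 could not move. A lower floor or none leaves a gene above both floors unchanged. The median over probe sets leaves a gene with 1 read probe set unchanged. Fgfr4, the only member past 2-fold as reported, kept its sign. Fgfr1, Dusp6 and Etv5, all near 0, changed sign under at least 1 alternative. Under the higher floor only 9 members had a ratio or bound. No paired analysis was possible because each pool has 1 array and the labels give no replicate numbers. With 1 array a pool, no spread between embryos or dissections can be had.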
